A study of Homo sapiens with 9 samples.

Results

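Interferon-stimulated and antigen presentation genes were followed in SW480, an established line of human colorectal cancer cells. They comprise 40 of the 41041 genes in the expression table: 5 interferon factors, 24 interferon-stimulated effectors and 11 genes of major histocompatibility complex (MHC) class I with the immunoproteasome. They were taken by symbol from a list of 41 names, in which DDX58 and RIGI are the older and the current name of 1 gene. The rule uses no expression value, but the list was drawn up with earlier results of these data known. Poly(A) RNA was sequenced from 9 libraries, 3 biological replicates in each of 3 groups. SFN+5-FU cells were given the isothiocyanate sulforaphane (SFN), a compound of broccoli and related plants, together with the pyrimidine analogue 5-fluorouracil (5-FU). SFN cells received 25 µM SFN. Control cells were hypoxic cells for which the labels name no compound and no vehicle. Cells of all 3 groups spent 48 h at 1% oxygen, and none of the 9 libraries is from normoxic cells or from cells on 5-FU alone. The labels do not give the 5-FU dose, or the SFN dose in the combined group. All libraries come from 1 cell line, so the replicates carry no variation between tumours.

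Interferons act through receptors on the cell surface, whose JAK kinases phosphorylate STAT proteins. STAT2 and IRF9 belong to the factor that binds interferon-stimulated response elements, while other STAT dimers bind gamma-activated sites. MHC class I molecules carry peptides, cut by the proteasome and pumped into the endoplasmic reticulum by the TAP transporter, to the cell surface, where cytotoxic T cells inspect them. Loss of single components of this machinery is a known feature of some colorectal cancers.

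Levels are in FPKM, which divides fragments by the length of the transcript and the size of the library, with an unknown number of fragments behind each value. FPKM summed to between 259184 and 272235 in a library. The library labelled SFN replicate 2 stood apart from its group. Over the 12662 genes with a mean of at least 1 FPKM, its log2(FPKM + 1) values correlated at 0.993 with each SFN+5-FU library, against 0.963 and 0.968 with SFN replicates 1 and 3 (Pearson's r across genes, which are not independent, so a description only). Of the 32 members that reach that mean, 28 lay nearer to the SFN+5-FU mean than to the mean of SFN replicates 1 and 3 in this library, as did 82.6% of all genes tested. It stays in its labelled group here, and values without it are given beside those results against control whose call or direction it changes, or whose size it changes by over 1.5 times, and beside the named differences between the treatments. As a check of the tissue label, 7 of 9 colorectal epithelial markers averaged at least 1 FPKM, all but KRT20 and LGR5. Their summed levels were 1707 to 1722 FPKM in SFN+5-FU cells, 1768 to 2383 FPKM in SFN cells and 2552 to 2596 FPKM in control cells. Most of each sum came from KRT8, KRT18 and KRT19. CDH1 went from 12.65 to 15.36 FPKM in control cells to 4.65 to 5.82 FPKM in SFN+5-FU cells. VIL1 went from 3.71 to 3.98 FPKM to 0.79 to 0.86 FPKM, while EPCAM overlapped, at 125 to 133 FPKM and 114 to 126 FPKM. Of 10 leukocyte markers 9 were in the table and 3 averaged at least 1 FPKM (CD14, CD68 and LYZ), with sums of 8.06 to 11.5 FPKM in SFN+5-FU cells, 5.78 to 10.9 FPKM in SFN cells and 5.51 to 5.98 FPKM in control cells. PTPRC, which encodes the pan-leukocyte protein CD45, was at 0 in all 9 libraries. Endothelial and fibroblast markers summed to at most 0.93 and 2.07 FPKM. Both the epithelial and the leukocyte sums move with treatment, and their part in the results below was not tested. The leukocyte sum hides opposite directions. CD68 was at 0.48 to 0.61 FPKM in control cells and 5.59 to 8.96 FPKM in SFN+5-FU cells. In contrast, CD14 went from 1.63 to 1.98 FPKM in control cells to 0.86 to 1.32 FPKM in SFN+5-FU cells, and LYZ from 2.32 to 2.87 FPKM to 0.76 to 1.80 FPKM. In bulk RNA a change in the number of cells of a state and a change in RNA per cell cannot be told apart.

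Against control cells most class I genes were higher in SFN+5-FU cells, while the effectors went both ways. In SFN+5-FU cells 66.2% of all tested genes passed limma's test against control cells (38.3% higher and 28.0% lower, Benjamini-Hochberg adjusted p of at most 0.05 over all 12662 genes), and that is the background for the counts. Under median-of-ratios scaling 4066 genes were higher and 4152 lower in SFN+5-FU cells, in place of 4847 and 3540, and 2977 were higher and 3300 lower in SFN cells, in place of 3478 and 2855, so the excess of higher genes in the background depends on the scaling. The counts of members under that scaling were 16 higher and 8 lower in SFN+5-FU cells and 12 higher and 7 lower in SFN cells. Of the 32 tested members 18 were higher and 7 lower. The class I group gave 8 higher and none lower of 10 tested, the interferon factors 3 higher and 1 lower of 4, and the effectors 7 higher and 6 lower of 18. All treated libraries lay above all control libraries for 20 members and below them for 7, beside 45.5% and 33.2% of all tested genes. The median log2 fold change was 0.60 for the class I group, 0.74 for the factors and 0.09 for the effectors, beside 0.10 for all tested genes. Fold changes are on the log2(FPKM + 1) scale throughout, which shrinks those of genes with low levels, and each group mean rests on 3 libraries.

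In SFN cells 50.0% of tested genes passed against control cells (27.5% higher and 22.5% lower). Of the 32 members 14 were higher and 7 lower, with 7 and 0 of the 10 class I genes, 3 and 1 of the 4 factors and 4 and 6 of the 18 effectors. The libraries of the 2 groups did not overlap for 16 members that lay above control and 6 that lay below, beside 31.6% and 25.8% of all tested genes. Median log2 fold changes were 0.36 for the class I group, 0.50 for the factors and -0.06 for the effectors, beside 0.05 for all tested genes; without SFN replicate 2 they were 0.33, 0.40 and -0.10, beside 0.02. Both comparisons use the same 3 control libraries, so the values of one are not independent of the other. Without SFN replicate 2 the counts were 20 higher and 7 lower for SFN+5-FU cells and 15 higher and 8 lower for SFN cells, with backgrounds of 74.7% (43.4% higher and 31.3% lower) and 56.9% (30.0% and 26.9%).

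**Figure D1:**
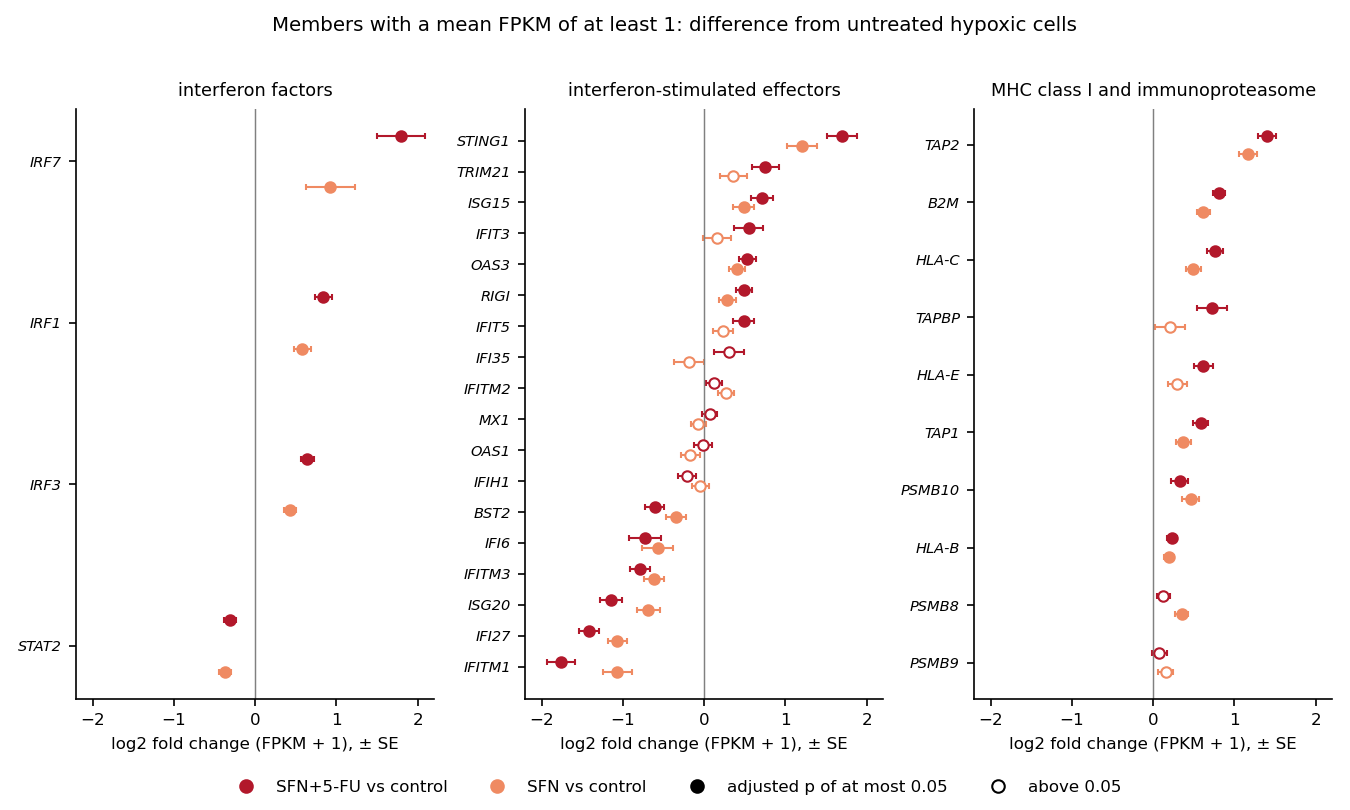
Log2 fold change with SE (horizontal axis, log2(FPKM + 1) scale) of the 32 tested members (vertical axis) against control cells, for SFN+5-FU cells (dark red) and SFN cells (orange). Filled points passed an adjusted p of 0.05. In SFN+5-FU cells the class I genes lie from 0.08 to 1.40 (the lowest, PSMB9, was at -0.02 under median-of-ratios scaling), while the effectors spread from -1.76 to 1.69.

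Between the treated groups none of the 32 members passed the test of SFN+5-FU against SFN cells, where 0.00790% of all tested genes did (1 gene). At an unadjusted p of 0.05 the limma fit held 11 members higher and 4 lower, among 2249 higher and 1733 lower of all tested genes. The SFN+5-FU libraries lay above all SFN libraries for 1 member, B2M, and below them for 4 (ISG20, IFITM1, BST2 and PSMB8), beside 10.6% and 10.3% of all tested genes. The count of calls depends on SFN replicate 2. Without that library 18 members were higher and 3 lower in SFN+5-FU cells, with a background of 51.2% of all tested genes (29.8% higher and 21.4% lower). With library weights estimated by limma, which gave this library a weight of 0.0893, 20 were higher and 5 lower, with a background of 58.7% of all tested genes (33.4% higher and 25.3% lower). Library by library, the median difference of the 32 members from the control mean was 0.39, 0.41 and 0.41 on the log2 scale in SFN+5-FU replicates 1, 2 and 3, and 0.14, 0.37 and 0.17 in the SFN replicates.

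**Figure D2:**
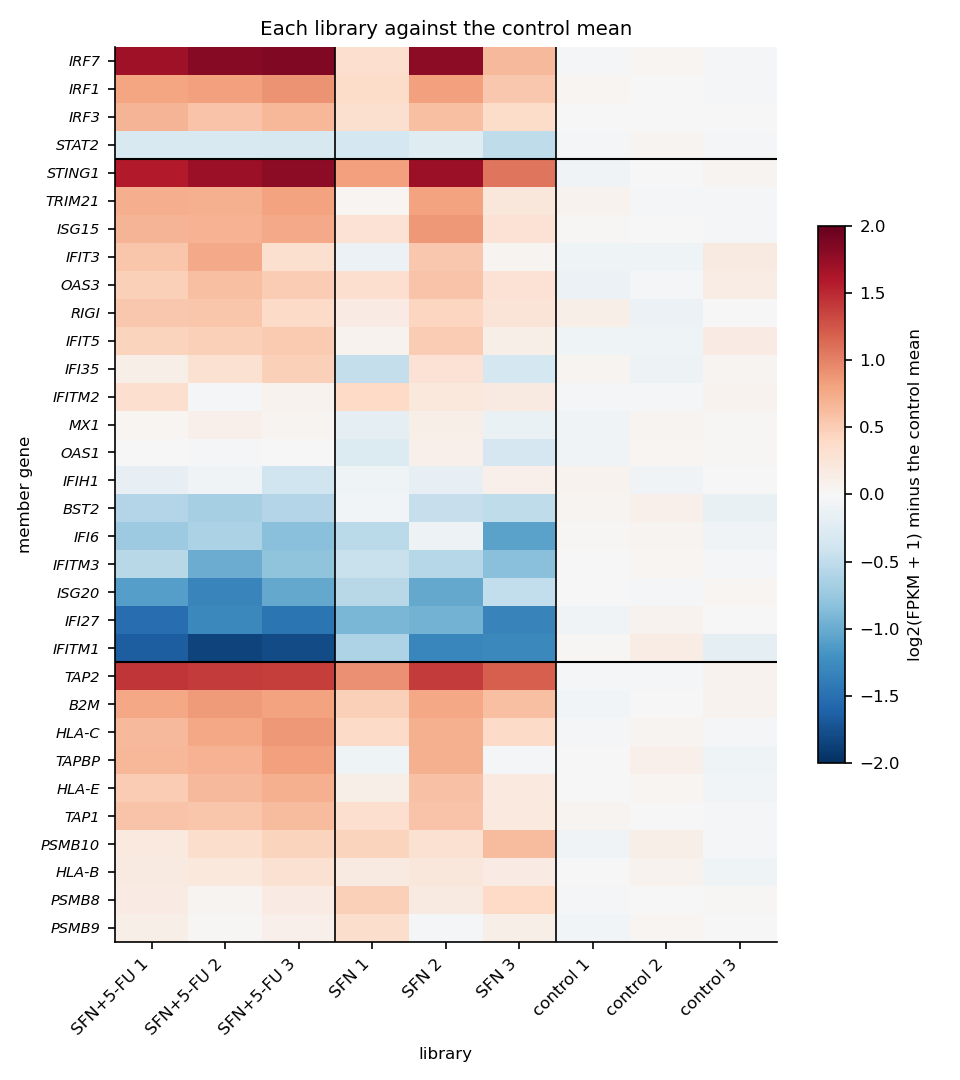
Difference of each library (horizontal axis) from the control mean on the log2(FPKM + 1) scale (colour, red above and blue below the control mean) for the 32 tested members (vertical axis), with black lines between the interferon factors, the effectors and the class I group. The column of SFN replicate 2 (median 0.37) looks like the SFN+5-FU columns (0.39 to 0.41) more than like those of SFN replicates 1 and 3 (0.14 and 0.17).

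The upstream part of the pathway was measured through a wider list. Of the interferon ligands searched for, IFNB1 (interferon beta) reached at most 0.06 FPKM in any library, IFNL1 at most 0.10 FPKM and IFNE at most 0.36 FPKM. The other ligands on the list are not analysed here. Of 10 tested receptor, kinase and STAT genes 4 were higher and 0 lower in SFN+5-FU cells, and 3 were higher and 1 lower in SFN cells (3 higher and 5 lower without SFN replicate 2). Called genes were 40.0% of this list in each treatment, below the 66.2% of all tested genes in SFN+5-FU cells and 50.0% in SFN cells. Without SFN replicate 2 the share in SFN+5-FU cells was 50.0%, beside 74.7%. In SFN cells it then lay above the background of 56.9%, with more genes lower than higher. IFNAR1, a chain of the type I interferon receptor, had 8.88, 9.35 and 8.12 FPKM in SFN+5-FU cells, 5.90, 8.64 and 6.39 FPKM in SFN cells and 4.84, 4.57 and 4.84 FPKM in control cells. It rose by 0.77 log2 units (SE 0.118, adjusted p = 0.000475) in SFN+5-FU cells and by 0.46 log2 units (SE 0.118, adjusted p = 0.0108) in SFN cells. IFNGR1, the ligand-binding chain of the interferon gamma receptor, rose by 0.69 log2 units in SFN+5-FU cells and 0.49 log2 units in SFN cells (adjusted p = 0.000208 and 0.00225). The kinase gene JAK1 had changes of -0.07 log2 units in SFN+5-FU cells and -0.17 log2 units in SFN cells (adjusted p = 0.422 and 0.0635). Without SFN replicate 2 the value in SFN cells was -0.23 (adjusted p = 0.00541). JAK1 also passed as lower in SFN cells under median-of-ratios scaling (-0.23, adjusted p = 0.0117) and quantile normalization (0.0175). The same held with mitochondrial transcripts left out (0.0151), library weights (0.00102) and GC content and length correction (0.00992). In SFN+5-FU cells JAK1 passed as lower under median-of-ratios scaling (-0.16, adjusted p = 0.0398) and with GC content and length correction (-0.16, adjusted p = 0.0289).

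Among the interferon factors, IRF7, the factor that amplifies production of type I interferon, changed most. It had 26.0, 28.4 and 29.2 FPKM in SFN+5-FU cells, 9.45, 27.8 and 12.0 FPKM in SFN cells and 7.21, 7.52 and 7.21 FPKM in control cells, in the order of replicates 1, 2 and 3, which is kept below. All SFN+5-FU libraries were above all control libraries, and SFN replicate 2 lay among the SFN+5-FU libraries while SFN replicates 1 and 3 lay closer to control. The change in SFN+5-FU cells was 1.79 log2 units (SE 0.299, adjusted p = 0.000716), with means of 27.9 ± 1.63 FPKM in SFN+5-FU cells and 7.31 ± 0.179 FPKM in control cells (SD, n = 3 each). In SFN cells it was 0.92 log2 units (SE 0.299, adjusted p = 0.0288), and 0.49 without SFN replicate 2 (adjusted p = 0.00178); leaving out control replicate 1, 2 or 3 gave adjusted p values of 0.0729, 0.0662 and 0.0691, and the call was also lost with no expression filter (0.0812) or only the 6 libraries compared (0.0656), within a range of 0.000227 to 0.0812 over the alternatives. Between SFN+5-FU and SFN cells it was 0.87 log2 units (SE 0.299, adjusted p = 0.134), and 1.30 without SFN replicate 2 (adjusted p = 2.31e-05, within a range of 2.31e-05 to 0.396).

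IRF1, which is induced by interferon gamma and acts on class I genes, had 8.87, 9.03 and 9.62 FPKM in SFN+5-FU cells, 6.33, 9.06 and 7.30 FPKM in SFN cells and 4.83, 4.68 and 4.56 FPKM in control cells. All treated libraries lay above all control libraries. It rose by 0.84 log2 units (SE 0.107, adjusted p = 0.000167) in SFN+5-FU cells and by 0.58 log2 units (SE 0.107, adjusted p = 0.00202) in SFN cells. IRF3, a factor present before infection and activated by phosphorylation, had the highest level of the factors, with 47.1, 43.7 and 46.8 FPKM in SFN+5-FU cells, 36.6, 44.6 and 37.6 FPKM in SFN cells and 29.1, 28.8 and 29.4 FPKM in control cells. It rose by 0.64 log2 units (SE 0.0783, adjusted p = 0.000139) in SFN+5-FU cells and by 0.43 log2 units (SE 0.0783, adjusted p = 0.00190) in SFN cells, again with no overlap with control. Exons of IRF3 overlap those of BCL2L12 on the opposite strand, which averaged 20.02 FPKM, and the sources used here do not say whether strand was used in counting. STAT2, a subunit of the factor that binds response elements, fell by 0.31 log2 units in SFN+5-FU cells (adjusted p = 0.00672) and by 0.37 log2 units in SFN cells (adjusted p = 0.00393). IRF9, the subunit of that factor that recognises DNA, ranged from 0.21 to 0.41 FPKM over the 9 libraries and was not tested. Its exons overlap those of AL136295.5 on the same strand, which averaged 3.97 FPKM. Reads of IRF9 may therefore count for that gene, and its own level may be understated.

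**Figure D3:**
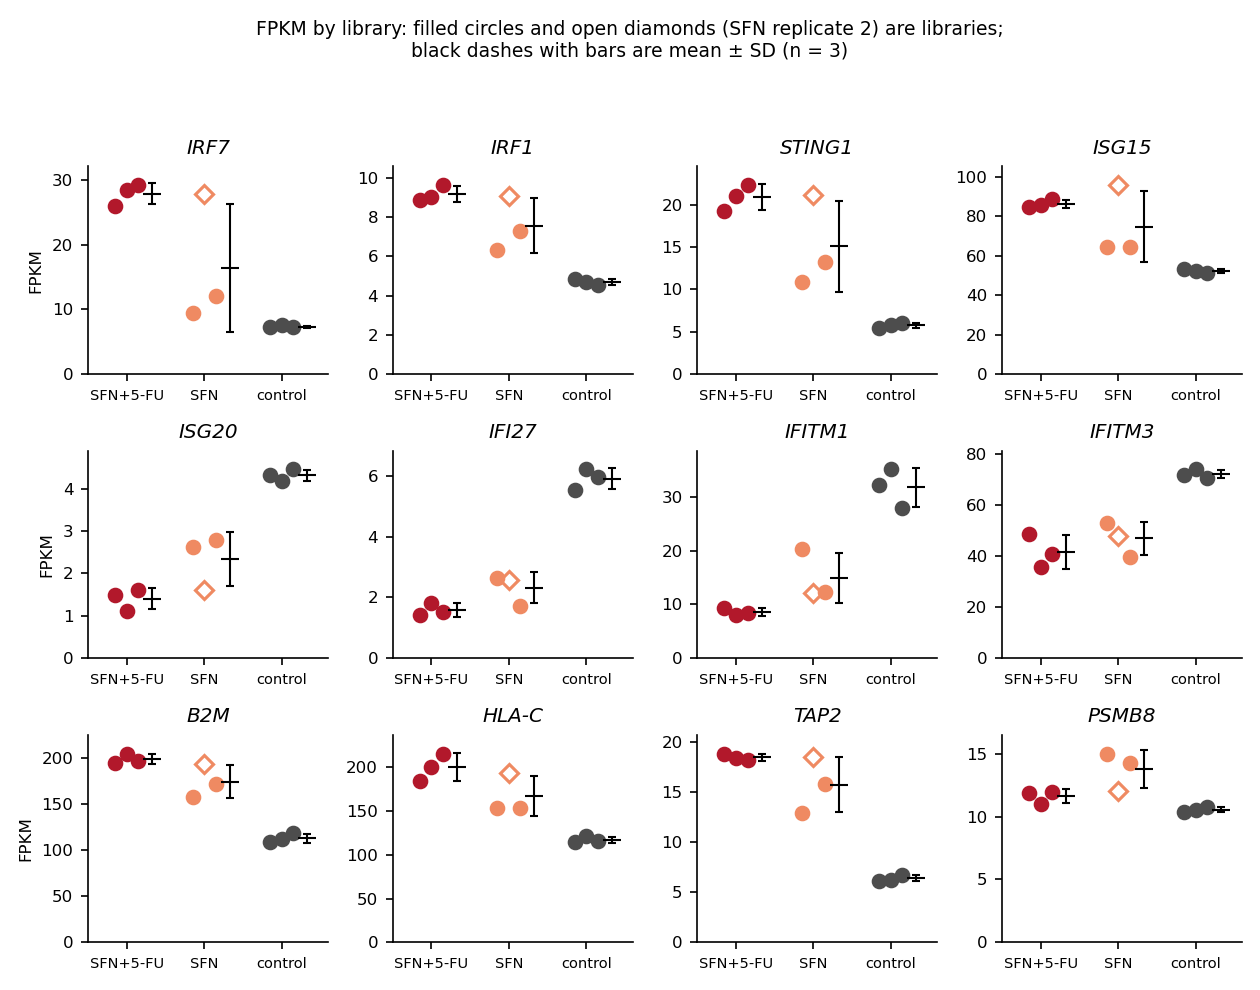
FPKM (vertical axis, from 0) of 12 members in each of the 9 libraries, by group (horizontal axis). Circles are libraries, the open diamond is SFN replicate 2, and dashes with bars are the mean and SD of 3 libraries. IRF7 sits at 26.0 to 29.2 FPKM in SFN+5-FU cells and at 7.21 to 7.52 FPKM in control cells, while IFITM1 sits at 8.04 to 9.41 FPKM in SFN+5-FU cells and at 27.96 to 35.1 FPKM in control cells.

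The effectors split in direction. STING1, the adaptor that relays signals of cytosolic DNA, had 19.3, 21.1 and 22.3 FPKM in SFN+5-FU cells, 10.9, 21.2 and 13.2 FPKM in SFN cells and 5.42, 5.80 and 6.05 FPKM in control cells. It rose by 1.69 log2 units (SE 0.189, adjusted p = 8.41e-05) in SFN+5-FU cells, to 20.9 ± 1.53 FPKM against 5.76 ± 0.317 FPKM in control cells, and by 1.20 log2 units (SE 0.189, adjusted p = 0.000847) in SFN cells (0.95 without SFN replicate 2). All 6 treated libraries lay above all control libraries. CGAS, whose enzyme makes the messenger that activates STING1, ranged from 0.05 to 0.27 FPKM and was not tested.

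ISG15, a ubiquitin-like protein that is attached to other proteins, had 84.6, 85.4 and 88.5 FPKM in SFN+5-FU cells, 64.2, 95.6 and 64.2 FPKM in SFN cells and 53.3, 52.1 and 51.1 FPKM in control cells. It rose by 0.71 log2 units (SE 0.134, adjusted p = 0.00139) in SFN+5-FU cells and by 0.48 log2 units (SE 0.134, adjusted p = 0.0148) in SFN cells, the second value being 0.29 without SFN replicate 2 (adjusted p = 0.000483). TRIM21, a ubiquitin ligase that binds antibodies inside cells, had 13.3, 13.1 and 14.1 FPKM in SFN+5-FU cells, 7.88, 14.2 and 9.06 FPKM in SFN cells and 8.08, 7.45 and 7.37 FPKM in control cells. SFN replicate 1 lay among the control libraries and SFN replicate 2 above all SFN+5-FU libraries, and the test in SFN cells gave 0.36 log2 units (SE 0.165, adjusted p = 0.0986), with an adjusted p of 0.0197 and a value of 0.52 without SFN replicate 1 (range of adjusted p over the alternatives 0.0197 to 0.207). Without SFN replicate 2 it was 0.13 (adjusted p = 0.143). In SFN+5-FU cells TRIM21 rose by 0.75 log2 units (SE 0.165, adjusted p = 0.00330).

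Genes for sensors and enzymes that act on viral RNA were expressed at low levels. OAS3, an oligoadenylate synthetase that activates RNase L, had 3.32, 3.71 and 3.43 FPKM in SFN+5-FU cells, 2.90, 3.63 and 2.81 FPKM in SFN cells and 1.87, 2.02 and 2.45 FPKM in control cells. It rose by 0.53 log2 units (SE 0.102, adjusted p = 0.00156) in SFN+5-FU cells and by 0.40 log2 units (SE 0.102, adjusted p = 0.0100) in SFN cells. IFIT3, of the family that binds viral RNA ends, had 2.02, 2.46 and 1.57 FPKM in SFN+5-FU cells, 0.90, 1.97 and 1.14 FPKM in SFN cells and 0.93, 0.93 and 1.32 FPKM in control cells. Its rise of 0.55 log2 units (SE 0.174, adjusted p = 0.0202) in SFN+5-FU cells was lost without control replicate 1 (adjusted p = 0.0641), control replicate 2 (0.0635), SFN+5-FU replicate 1 (0.0520) or SFN+5-FU replicate 2 (0.0776), and with no expression filter (0.0571), within a range of 0.000192 to 0.0776. In SFN cells it was 0.16 log2 units (SE 0.174, adjusted p = 0.464), and -0.03 without SFN replicate 2 (adjusted p = 0.889). The related IFIT5 rose by 0.48 log2 units in SFN+5-FU cells (adjusted p = 0.00737) and had 0.23 log2 units in SFN cells (adjusted p = 0.148), and 0.09 there without SFN replicate 2 (adjusted p = 0.402).

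RIGI, a cytosolic sensor of viral RNA, rose by 0.49 log2 units in SFN+5-FU cells (adjusted p = 0.00220). Its rise of 0.28 log2 units in SFN cells (adjusted p = 0.0404) had adjusted p values of 0.0570 to 0.141 without control replicate 2 or 3, SFN replicate 2 or 3, or SFN+5-FU replicate 1 or 2. The call was also lost with no expression filter (0.0947), under median-of-ratios scaling (0.0532), with mitochondrial transcripts left out (0.0657), with only the 6 libraries compared in the fit (0.0812) and with a replicate block (0.0672). IFIH1, a second sensor of this kind, had -0.21 log2 units in SFN+5-FU cells and -0.05 log2 units in SFN cells (adjusted p = 0.102 and 0.712). In SFN+5-FU cells IFIH1 passed as lower under median-of-ratios scaling (-0.30, adjusted p = 0.0312), with mitochondrial transcripts left out (0.0375), with library weights (0.0302) and with GC content and length correction (-0.36, adjusted p = 0.00619), and in SFN cells it was 0.01 without SFN replicate 2. MX1, an antiviral GTPase, had 0.07 log2 units in SFN+5-FU cells and -0.07 log2 units in SFN cells, and OAS1 had -0.02 log2 units in SFN+5-FU cells and -0.17 log2 units in SFN cells, none of them past the threshold (adjusted p from 0.233 to 0.901). Without SFN replicate 2, OAS1 was in SFN cells at -0.31 log2 units (adjusted p = 0.00568) and MX1 at -0.16 log2 units (adjusted p = 0.0859). IFI35, which binds other interferon-induced proteins, had 0.30 log2 units in SFN+5-FU cells and -0.18 log2 units in SFN cells (adjusted p = 0.174 and 0.431). Without SFN replicate 2 it was 0.30 in SFN+5-FU cells and -0.42 in SFN cells, with adjusted p values of 0.0159 and 0.00786.

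The fallers include the interferon-induced transmembrane proteins, which hinder entry of viruses at membranes. IFITM1 had 9.41, 8.04 and 8.47 FPKM in SFN+5-FU cells, 20.3, 12.2 and 12.4 FPKM in SFN cells and 32.2, 35.1 and 28.0 FPKM in control cells. It fell by 1.76 log2 units (SE 0.174, adjusted p = 4.77e-05) in SFN+5-FU cells, to 8.64 ± 0.701 FPKM against 31.8 ± 3.59 FPKM in control cells, and by 1.07 log2 units (SE 0.174, adjusted p = 0.00104) in SFN cells. The SFN+5-FU libraries were also all below the SFN libraries, a difference of -0.69 log2 units (SE 0.174, adjusted p = 0.134), and of -0.81 without SFN replicate 2 (adjusted p = 0.00458, within a range of 0.00292 to 0.396). IFITM3 had 48.6, 35.6 and 40.6 FPKM in SFN+5-FU cells, 52.9, 48.0 and 39.8 FPKM in SFN cells and 71.9, 73.9 and 70.5 FPKM in control cells. It fell by 0.79 log2 units (SE 0.124, adjusted p = 0.000523) in SFN+5-FU cells and by 0.62 log2 units (SE 0.124, adjusted p = 0.00310) in SFN cells. IFITM2, the effector of highest level, was not lower, with 139, 107 and 116 FPKM in SFN+5-FU cells, 145, 127 and 125 FPKM in SFN cells and 107, 107 and 115 FPKM in control cells. Its changes were 0.12 log2 units (adjusted p = 0.303, and -0.02 under quantile normalization) in SFN+5-FU cells and 0.27 log2 units (adjusted p = 0.0530) in SFN cells. The value in SFN cells passed the threshold without SFN replicate 2 (0.29, adjusted p = 0.0441), SFN+5-FU replicate 1 (0.0254) or SFN+5-FU replicate 2 (0.0436), and with a replicate block (0.0418), with library weights (0.0432), with only the 6 libraries compared (0.0394) and with a mean of at least 5 FPKM (0.0488), within a range of 0.0254 to 0.306. IFITM1 and IFITM2 share exon bases on 1 strand, and reads of this family, as of the IFIT, OAS and HLA families, may be assigned to the wrong member.

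IFI27, a small mitochondrial protein widely used as an interferon marker, had 1.41, 1.83 and 1.51 FPKM in SFN+5-FU cells, 2.65, 2.58 and 1.73 FPKM in SFN cells and 5.54, 6.21 and 5.97 FPKM in control cells. It fell by 1.42 log2 units (SE 0.120, adjusted p = 2.25e-05) in SFN+5-FU cells and by 1.07 log2 units (SE 0.120, adjusted p = 0.000157) in SFN cells, with no overlap of treated and control libraries. ISG20, an exonuclease that degrades viral RNA, had 1.49, 1.12 and 1.61 FPKM in SFN+5-FU cells, 2.62, 1.62 and 2.78 FPKM in SFN cells and 4.31, 4.19 and 4.45 FPKM in control cells. It fell by 1.15 log2 units (SE 0.140, adjusted p = 0.000135) in SFN+5-FU cells and by 0.69 log2 units (SE 0.140, adjusted p = 0.00332) in SFN cells. All SFN+5-FU libraries were below all SFN libraries, a difference of -0.46 log2 units (SE 0.140, adjusted p = 0.134) and, without SFN replicate 2, of -0.63 (adjusted p = 0.000653, within a range of 0.000149 to 0.396).

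IFI6, a small membrane protein that protects cells from death, had 10.5, 11.2 and 9.61 FPKM in SFN+5-FU cells, 11.9, 16.6 and 8.04 FPKM in SFN cells and 18.2, 18.6 and 17.0 FPKM in control cells, with the 3 SFN libraries far apart. It fell by 0.73 log2 units (SE 0.195, adjusted p = 0.00895) in SFN+5-FU cells. The fall of 0.57 log2 units (SE 0.195, adjusted p = 0.0352) in SFN cells had adjusted p values of 0.0502 to 0.0935 without control replicate 1, 2 or 3, SFN replicate 1 or 3, or SFN+5-FU replicate 1 or 3, with no expression filter or with only the 6 libraries compared, and was -0.33 without SFN replicate 3. BST2, which tethers budding viruses to the cell, had 23.6, 22.2 and 23.7 FPKM in SFN+5-FU cells, 34.7, 25.7 and 24.9 FPKM in SFN cells and 37.3, 38.5 and 32.3 FPKM in control cells. It fell by 0.61 log2 units (SE 0.122, adjusted p = 0.00187) in SFN+5-FU cells. In SFN cells it fell by 0.34 log2 units (SE 0.122, adjusted p = 0.0406), although SFN replicate 1 lay among the control libraries, and the adjusted p was 0.0578 to 0.129 without control replicate 1 or 2, SFN replicate 2 or 3, or any of SFN+5-FU replicates 1, 2 and 3, with no expression filter or with only the 6 libraries compared.

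Another 5 effectors stayed under a mean of 1 FPKM and were not tested. IFI44 ranged from 0.10 to 1.64 FPKM over the 9 libraries, IFI44L from 0 to 0.23, IFIT1 from 0.21 to 1.40, IFIT2 from 0.38 to 1.07 and OASL from 0.28 to 0.84. These are among the genes that interferon induces most in many cell types, and their levels here were low in all 3 groups.

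In the class I group the light chain gene B2M had the highest level, with 195, 205 and 198 FPKM in SFN+5-FU cells, 158, 193 and 173 FPKM in SFN cells and 109, 113 and 119 FPKM in control cells. It rose by 0.81 log2 units (SE 0.0772, adjusted p = 4.10e-05) in SFN+5-FU cells, to 199 ± 5.46 FPKM against 113 ± 4.99 FPKM in control cells, and by 0.62 log2 units (SE 0.0772, adjusted p = 0.000269) in SFN cells. Corrected for the GC content and length of each gene, these rises were 0.48 in SFN+5-FU cells and 0.37 in SFN cells. HLA-C, a classical heavy chain that also engages natural killer cells, had 184, 201 and 216 FPKM in SFN+5-FU cells, 153, 193 and 154 FPKM in SFN cells and 115, 121 and 116 FPKM in control cells. It rose by 0.76 log2 units (SE 0.0977, adjusted p = 0.000173) in SFN+5-FU cells and by 0.50 log2 units (SE 0.0977, adjusted p = 0.00284) in SFN cells. HLA-E, which presents signal peptides to natural killer cell receptors, had 67.0, 74.1 and 77.6 FPKM in SFN+5-FU cells, 51.0, 71.4 and 53.7 FPKM in SFN cells and 47.3, 48.6 and 45.3 FPKM in control cells. It rose by 0.62 log2 units (SE 0.118, adjusted p = 0.00149) in SFN+5-FU cells. In SFN cells it was above control in all 3 libraries with 0.30 log2 units (SE 0.118, adjusted p = 0.0608), and 0.39 with an adjusted p of 0.0232 without SFN replicate 1 (range 0.00782 to 0.183). Without SFN replicate 2 it was 0.15 (adjusted p = 0.0822), and it passed with a replicate block (0.0479), with library weights (0.18, adjusted p = 0.0219) and with GC content and length correction (0.41, adjusted p = 0.00782).

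HLA-B, a classical heavy chain like HLA-C, had smaller changes. It rose by 0.23 log2 units in SFN+5-FU cells (adjusted p = 0.00976) and by 0.19 log2 units in SFN cells (adjusted p = 0.0287). The first call was lost under median-of-ratios scaling, quantile normalization and with mitochondrial transcripts left out (highest adjusted p 0.219). The second was lost under the same settings (highest adjusted p 0.212), and also with a replicate block (0.0548), with only the 6 libraries compared (0.0669) and without control replicate 1 (0.0735) or 3 (0.0973). HLA-B and HLA-C share exon bases on 1 strand, so reads of one may count for the other.

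The peptide transporter is built from TAP1 and TAP2, and TAP2 changed most in the class I group. TAP2 had 18.9, 18.5 and 18.2 FPKM in SFN+5-FU cells, 12.9, 18.5 and 15.8 FPKM in SFN cells and 6.18, 6.26 and 6.74 FPKM in control cells. It rose by 1.40 log2 units (SE 0.109, adjusted p = 1.69e-05) in SFN+5-FU cells, to 18.5 ± 0.337 FPKM against 6.39 ± 0.303 FPKM in control cells, and by 1.17 log2 units (SE 0.109, adjusted p = 6.24e-05) in SFN cells. Exons of TAP2 overlap those of AL669918.1 on the same strand, which averaged 2.05 FPKM, so reads of one may count for the other. TAP1 had 19.0, 18.9 and 19.99 FPKM in SFN+5-FU cells, 16.1, 19.1 and 14.6 FPKM in SFN cells and 13.0, 12.4 and 12.2 FPKM in control cells. It rose by 0.58 log2 units (SE 0.0907, adjusted p = 0.000485) in SFN+5-FU cells and by 0.37 log2 units (SE 0.0907, adjusted p = 0.00851) in SFN cells, and in both comparisons the treated libraries of both genes lay above all control libraries. TAPBP encodes tapasin, which bridges the transporter and the empty class I molecule, and had 19.4, 19.7 and 21.5 FPKM in SFN+5-FU cells, 11.1, 20.02 and 11.7 FPKM in SFN cells and 11.7, 12.7 and 11.1 FPKM in control cells. SFN replicates 1 and 3 lay among the control libraries and SFN replicate 2 among the SFN+5-FU libraries. It rose by 0.72 log2 units (SE 0.181, adjusted p = 0.00643) in SFN+5-FU cells, and was 0.21 log2 units (SE 0.181, adjusted p = 0.369) in SFN cells, where it was -0.05 without SFN replicate 2 (adjusted p = 0.588). Between SFN+5-FU and SFN cells it differed by 0.52 log2 units (SE 0.181, adjusted p = 0.134), and by 0.77 without SFN replicate 2 (adjusted p = 6.38e-05, within a range of 5.41e-05 to 0.396).

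The immunoproteasome subunits, which replace the constitutive catalytic subunits under interferon, all lay below the class I median of 0.60 log2 units in SFN+5-FU cells. In SFN cells PSMB10 lay above the class I median of 0.36 log2 units, and PSMB8 and PSMB9 lay below it. PSMB8 had 0.13 log2 units in SFN+5-FU cells (adjusted p = 0.201, and 0.0455 without SFN replicate 2) and rose by 0.35 log2 units in SFN cells (adjusted p = 0.00699). All 3 SFN+5-FU libraries, at 11.9, 11.0 and 12.0 FPKM, lay below the SFN libraries at 15.0, 12.1 and 14.3 FPKM. That difference was -0.22 log2 units (SE 0.0825, adjusted p = 0.134), and -0.31 without SFN replicate 2 (adjusted p = 0.00194, within a range of 0.000794 to 0.396). PSMB10 rose by 0.33 log2 units in SFN+5-FU cells (adjusted p = 0.0199), with adjusted p values of 0.0571 to 0.0758 without control replicate 1 or 3 or SFN+5-FU replicate 2 or 3. That call was also lost under median-of-ratios scaling (0.111), quantile normalization (0.119) and with mitochondrial transcripts left out (0.0843). PSMB10 rose by 0.46 log2 units in SFN cells (adjusted p = 0.00554). PSMB9 had 0.08 log2 units in SFN+5-FU cells (-0.02 under median-of-ratios scaling) and 0.15 log2 units in SFN cells (adjusted p = 0.503 and 0.213), and 0.24 in SFN cells without SFN replicate 2 (adjusted p = 0.0281). PSMB8 and PSMB9 overlap on opposite strands, and exons of PSMB10 overlap those of AC040162.1 on the same strand, which averaged 0.98 FPKM. NLRC5, the transactivator of class I genes, ranged from 0.51 to 1.06 FPKM and was not tested. It had 0.56, 0.51 and 0.58 FPKM in SFN+5-FU cells, 0.92, 0.56 and 1.06 FPKM in SFN cells and 0.88, 0.98 and 0.79 FPKM in control cells.

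Of the 3 constitutive catalytic subunits 2 were higher in each treatment and 0 lower. These are 66.7% in each treatment, beside 66.2% of all tested genes in SFN+5-FU cells and 50.0% in SFN cells. PSMB5 rose by 0.60 log2 units in SFN+5-FU cells and by 0.40 log2 units in SFN cells (adjusted p = 0.000117 and 0.00164). PSMB6 rose by 0.45 log2 units in SFN+5-FU cells (adjusted p = 0.00178). PSMB7 rose by 0.46 log2 units in SFN cells (adjusted p = 0.0154), which did not pass without control replicate 1 (0.0571) or SFN replicate 3 (0.0542), under quantile normalization (0.0629) or with GC content and length correction (0.30, adjusted p = 0.0852).

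Promoter sequence was examined because the members moved in both directions. The core of the interferon-stimulated response element was searched as GAAANNGAAA on both strands, in windows from 250 bases before to 50 bases after the RefSeq start (GRCh38.p14). It was present in 22 of the 31 members that have a window, beside 4.38% of 27305 genes with a window. IRF7 and STING1, the members that rose most in SFN+5-FU cells, have no window and were not searched. The same holds for IRF3, IFITM2, HLA-E, IFIT2, OASL, CGAS and NLRC5. Of members tested in SFN+5-FU against control cells, 10 of 14 higher, 6 of 7 lower and 3 of 6 that did not pass held it. The core was therefore found among fallers as well as among risers. The gamma-activated site, TTCNNNGAA, was in 10 of 31 members beside 9.38% of genes, and overlapped the core in IFI27, IFITM1 and BST2. A kappa B site, searched as GGGANTTTCC on both strands, was in 5 of 31 members (OAS3, RIGI, IFIH1, B2M and TAP1) beside 0.678% of genes. The members were listed as interferon genes, so these shares describe the list. A match is a run of letters and says nothing of whether a factor was bound.

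Shown are the 6 tested members with the core and the largest absolute change in SFN+5-FU cells, among members that have a window. They are 4 fallers (IFITM1, IFI27, ISG20, IFITM3) and 2 risers (TAP2, B2M), and members without a window, IRF7 and STING1 among them, could not enter. Each runs 5′ to 3′ on the strand of the gene from 250 bases before the start to 20 bases from it, 270 bases in all, with matches of the core, or of its reverse complement, in capitals. The sequences are from RefSeq, GRCh38.p14. IFITM1 is at chr11:313790-314059 (+), IFI27 at chr14:94110486-94110755 (+), TAP2 at chr6:32838720-32838989 (-), ISG20 at chr15:88638766-88639035 (+), B2M at chr15:44711267-44711536 (+) and IFITM3 at chr11:320841-321110 (-).
IFITM1: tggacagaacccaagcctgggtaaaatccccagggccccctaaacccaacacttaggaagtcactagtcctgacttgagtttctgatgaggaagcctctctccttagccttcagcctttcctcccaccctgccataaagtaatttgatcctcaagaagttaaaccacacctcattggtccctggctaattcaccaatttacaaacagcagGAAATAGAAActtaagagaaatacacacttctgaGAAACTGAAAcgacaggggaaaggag
IFI27: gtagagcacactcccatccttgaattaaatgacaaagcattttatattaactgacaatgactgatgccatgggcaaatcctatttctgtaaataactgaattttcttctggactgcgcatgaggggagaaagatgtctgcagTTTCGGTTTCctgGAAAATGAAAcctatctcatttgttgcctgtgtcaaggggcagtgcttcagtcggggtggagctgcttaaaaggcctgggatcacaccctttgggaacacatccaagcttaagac
TAP2: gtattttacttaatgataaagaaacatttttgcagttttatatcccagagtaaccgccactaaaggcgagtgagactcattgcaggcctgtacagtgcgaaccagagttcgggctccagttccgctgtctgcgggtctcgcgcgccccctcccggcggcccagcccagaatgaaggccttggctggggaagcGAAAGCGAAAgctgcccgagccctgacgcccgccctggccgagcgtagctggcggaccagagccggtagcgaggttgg
ISG20: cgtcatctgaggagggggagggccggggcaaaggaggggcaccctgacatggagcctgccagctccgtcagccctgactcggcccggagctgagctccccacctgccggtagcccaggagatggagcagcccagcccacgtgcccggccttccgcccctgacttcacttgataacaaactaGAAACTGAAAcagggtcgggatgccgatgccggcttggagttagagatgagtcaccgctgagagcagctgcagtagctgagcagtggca
B2M: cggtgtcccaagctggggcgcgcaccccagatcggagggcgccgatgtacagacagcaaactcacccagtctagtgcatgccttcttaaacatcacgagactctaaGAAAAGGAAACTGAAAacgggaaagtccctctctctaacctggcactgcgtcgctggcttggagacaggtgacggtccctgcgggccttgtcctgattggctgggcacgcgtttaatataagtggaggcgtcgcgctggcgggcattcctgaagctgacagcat
IFITM3: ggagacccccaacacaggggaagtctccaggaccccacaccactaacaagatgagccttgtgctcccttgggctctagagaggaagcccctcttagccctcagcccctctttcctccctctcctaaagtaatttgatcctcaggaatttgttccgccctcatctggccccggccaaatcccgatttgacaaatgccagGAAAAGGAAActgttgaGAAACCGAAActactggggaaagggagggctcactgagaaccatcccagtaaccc
Counting the first base of the transcript as 0, the matches lie at -40 to -31 and -6 to 3 in IFITM1 and at -52 to -43 and -35 to -26 in IFITM3, and both genes fell. The match of TAP2, which rose, lies at -58 to -49 and that of ISG20, which fell, at -69 to -60. IFI27 holds its matches at -108 to -99 and -95 to -86. B2M holds 2 overlapping matches at -144 to -129.

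**Figure D4:**
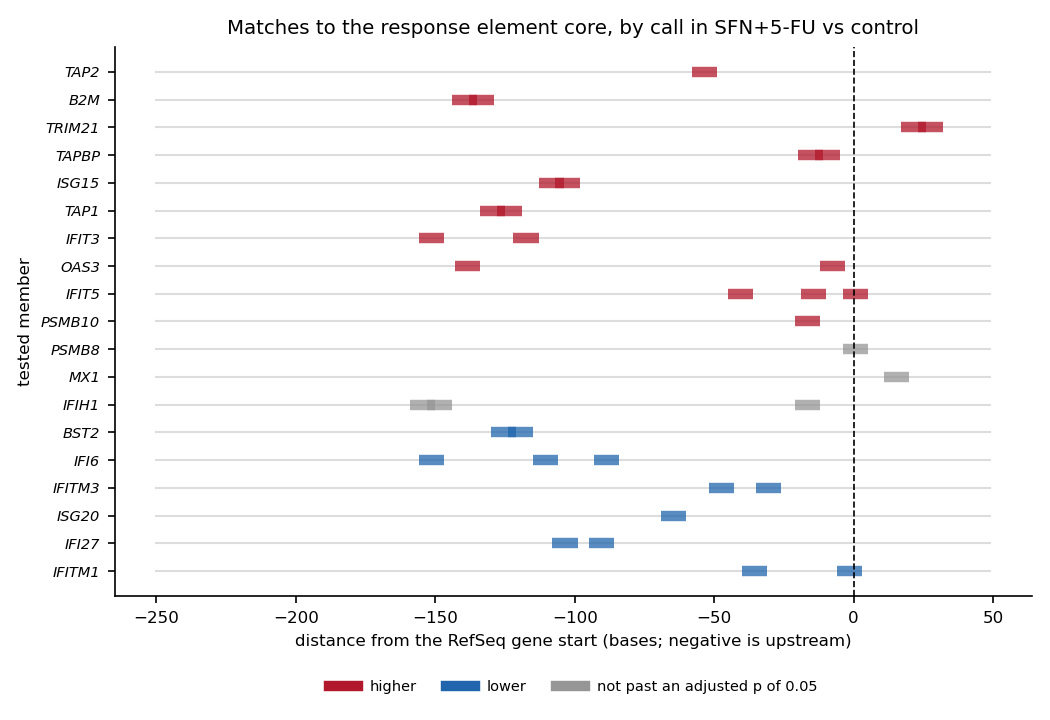
Positions of the response element core (bars) in the promoter windows of the 19 tested members that hold it (vertical axis), by distance from the RefSeq start in bases (horizontal axis). Colour gives the call in SFN+5-FU against control cells, higher (red), lower (blue) or not past the threshold (grey). Of these genes, 9 of 10 higher, 6 of 6 lower and 1 of 3 uncalled have a bar that ends before the start. The bars of TRIM21 (higher) and MX1 (uncalled) lie after it, and that of PSMB8 (uncalled) spans it.

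The wider interferon response was read from lists set beside the members. Of 33 tested other interferon-stimulated genes 16 were higher and 7 lower in SFN+5-FU cells, and 11 higher and 6 lower in SFN cells, shares near the backgrounds of 66.2% and 50.0%. UBD, a ubiquitin-like protein that marks proteins for degradation, had 9.48, 7.46 and 7.02 FPKM in SFN+5-FU cells, 11.6, 10.9 and 14.9 FPKM in SFN cells and 1.61, 1.79 and 1.67 FPKM in control cells. It rose by 1.73 log2 units (SE 0.130, adjusted p = 1.49e-05) in SFN+5-FU cells and by 2.31 log2 units (SE 0.130, adjusted p = 8.69e-06) in SFN cells. GBP3, a guanylate-binding protein, rose by 1.34 log2 units (SE 0.249, adjusted p = 0.00130) in SFN+5-FU cells. In SFN cells it was 0.70 log2 units (SE 0.249, adjusted p = 0.0419), 0.36 without SFN replicate 2 (adjusted p = 0.0300), with the call lost without control replicate 1, 2 or 3, SFN replicate 3 or any of SFN+5-FU replicates 1, 2 and 3 (adjusted p from 0.0562 to 0.113). It was also lost with no expression filter, a pseudocount of 5, mitochondrial transcripts left out, only the 6 libraries compared or GC content and length correction (from 0.0502 to 0.109). IFI30, a lysosomal thiol reductase, rose by 1.05 log2 units (SE 0.404, adjusted p = 0.0436) in SFN+5-FU cells and by 1.26 log2 units (SE 0.404, adjusted p = 0.0276) in SFN cells. The call in SFN+5-FU cells was lost without control replicate 1 or 3, SFN replicate 1 or 3 or SFN+5-FU replicate 2 or 3 (adjusted p from 0.0551 to 0.156), with no expression filter, under both other scalings, with mitochondrial transcripts left out, with only the 6 libraries compared or with GC content and length correction (from 0.0503 to 0.111). The call in SFN cells was lost without control replicate 1 or 3 or SFN replicate 1 or 3 (from 0.0605 to 0.0962) or with no expression filter (0.0793).

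Of 24 other class I pathway genes tested 12 were higher and 4 lower in SFN+5-FU cells, and 6 higher and 2 lower in SFN cells. These are 66.7% in SFN+5-FU cells and 33.3% in SFN cells, beside 66.2% and 50.0% of all tested genes. ULBP1 and ULBP2 encode stress ligands of natural killer cells and differed in direction. ULBP2 had 15.1, 15.8 and 16.0 FPKM in SFN+5-FU cells, 6.72, 13.5 and 7.53 FPKM in SFN cells and 5.77, 5.75 and 5.79 FPKM in control cells and rose by 1.30 log2 units (SE 0.195, adjusted p = 0.000401) in SFN+5-FU cells. In SFN cells ULBP2 rose by 0.54 log2 units, and by 0.26 without SFN replicate 2 (adjusted p = 0.00532). That call was lost on leaving out any control or SFN+5-FU library (adjusted p from 0.0612 to 0.0976), and with only the 6 libraries compared (0.0906). It was also lost with no expression filter (0.109), a pseudocount of 5 (0.0526), mitochondrial transcripts left out (0.0576) or GC content and length correction (0.0621). ULBP1 had 0.60, 0.79 and 0.56 FPKM in SFN+5-FU cells, 0.39, 0.50 and 0.31 FPKM in SFN cells and 2.47, 2.32 and 1.98 FPKM in control cells. It fell by 0.98 log2 units (SE 0.0947, adjusted p = 4.28e-05) in SFN+5-FU cells and by 1.22 log2 units (SE 0.0947, adjusted p = 2.83e-05) in SFN cells. PSME3, a proteasome activator subunit that interferon does not induce, rose by 0.85 log2 units (SE 0.0564, adjusted p = 1.70e-05) in SFN cells. The rise was similar in SFN+5-FU cells, at 0.89 log2 units in the limma fit without SFN replicate 2 (adjusted p = 5.29e-07). Of 4 tested MHC class II genes 0 were higher and 1 lower in SFN+5-FU cells, and 1 higher and 1 lower in SFN cells. These are 25.0% and 50.0%, beside 66.2% and 50.0%. Without SFN replicate 2 they are 50.0% and 100%, beside 74.7% and 56.9%. CTSS, a protease that processes antigen, rose by 1.33 log2 units (SE 0.242, adjusted p = 0.00187) in SFN cells. In SFN+5-FU cells CTSS had 0.56 log2 units and did not pass. It passed there without SFN replicate 2 (adjusted p = 0.000115) or 3 (0.0348) and with library weights (0.000124). It also passed with only the 6 libraries compared (5.54e-05) and a pseudocount of 0.1 (0.0455). HLA-DMA, which aids peptide loading of class II, fell by 0.48 log2 units (SE 0.0701, adjusted p = 0.000339) in SFN+5-FU cells and by 0.62 log2 units (SE 0.0701, adjusted p = 0.000160) in SFN cells.

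Among 11 tested negative regulators 2 were higher and 4 lower in SFN+5-FU cells, and 1 higher and 4 lower in SFN cells. These are 54.5% and 45.5%, beside 66.2% and 50.0% of all tested genes. Without SFN replicate 2 the counts were 4 and 5 in SFN+5-FU cells and 1 and 6 in SFN cells. Those are 81.8% and 63.6%, beside 74.7% and 56.9% of all tested genes. SOCS1 and SOCS3 both encode inhibitors of JAK signalling. SOCS1 rose by 1.06 log2 units (SE 0.275, adjusted p = 0.00759) in SFN+5-FU cells, and SOCS3 fell by 0.76 log2 units (SE 0.137, adjusted p = 0.00113) in SFN+5-FU cells and by 0.90 log2 units (SE 0.137, adjusted p = 0.000723) in SFN cells. USP18, which removes ISG15 from proteins and restrains the type I receptor, fell by 0.33 log2 units (SE 0.101, adjusted p = 0.0173) in SFN+5-FU cells and by 0.36 log2 units (SE 0.101, adjusted p = 0.0158) in SFN cells. The first was lost without control replicate 3 (adjusted p = 0.0636) or SFN+5-FU replicate 1 (0.0504), and the second without control replicate 3 (0.0565) or SFN replicate 3 (0.0528). Of 13 tested sensing adaptors, kinases and other IRFs, 2 were higher and 4 lower in each treatment, which is 46.2% in each, beside 66.2% and 50.0%. Without SFN replicate 2 there were 3 and 6 in SFN+5-FU cells and 4 and 5 in SFN cells, which is 69.2% in each, beside 74.7% and 56.9%. IRF2BP2, a corepressor that binds IRF2, fell by 0.81 log2 units (SE 0.0812, adjusted p = 5.06e-05) in SFN+5-FU cells and by 0.68 log2 units (SE 0.0812, adjusted p = 0.000204) in SFN cells.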

How the data were processed

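The deposited values are gene-level FPKM to 2 decimals; the submitters' processing notes name fastp, StringTie and edgeR without versions. Aligner, genome build, annotation and the use of strand in counting: not given in the sources used here. The labels' protocols describe paired-end sequencing of poly(A) RNA with dUTP marking of strand. The members and all lists were chosen with earlier results of these data known. The name table held 41002 of the 41041 identifiers, 29784 of them with a symbol. Testing was limited to the 12662 genes whose mean reached 1 FPKM (32 members; 8 did not), as log2(FPKM + 1), with no further scaling. All 9 libraries entered 1 limma fit with a mean-variance trend (limma 3.58.1, R 4.3.3; residual degrees of freedom 6, prior 3.2), with 3 contrasts, two-sided, Benjamini-Hochberg adjusted over all tested genes within each contrast; a call is an adjusted p of at most 0.05. The script was tested on simulated data. Values per library are given for members called in any contrast with an absolute log2 fold change of at least 0.5, and for the highest-level member of each group. Of each other list, the 2 called genes with the largest change per contrast are named, with IFNAR1, IFNGR1, JAK1 and USP18; some genes that this rule names are not reported here. Promoter windows are RefSeq's (GRCh38.p14); where a gene has several, the first with the core is printed. Exon overlaps are from GENCODE release 29. Same-numbered replicates were not treated as paired, and the alternatives are described below. The number of fragments, and so the counting precision of each value, is unknown.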

Additional observations from a re-analysis of the deposited data

How the results depend on the processing

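Alternatives changed the expression filter, pseudocount (0.1 and 5), scaling, variance model, library weights, libraries in the fit, GC content and length correction (12504 genes, 98.8% of those tested) and replicate block, and left out each library in turn. Against control, the counts of members moved by over 1.5 times with a mean FPKM of at least 5, which leaves 21 members to test: 4 in place of 7 were lower in both SFN+5-FU and SFN cells. For SFN+5-FU against SFN, library weights gave 20 higher and 5 lower and leaving out SFN replicate 2 gave 18 and 3, in place of 0 and 0. Without 1 library the counts ranged from 16 to 20 higher and 7 to 7 lower for SFN+5-FU against control, from 11 to 16 and 5 to 8 for SFN against control, and from 0 to 18 and 0 to 3 for SFN+5-FU against SFN. The cause of these changes was not tested, beyond the fewer genes of the stricter filter. Whether same-numbered replicates were paired could not be settled from the data. Of 9 same-number pairs 1 correlated above 0.1 (range -0.143 to 0.107), beside 3 of 18 different-number pairs (range -0.247 to 0.182). These correlations use what is left after the group mean is taken off, with only 3 libraries in a group. The replicate block gave the same counts, though not from the same genes (18 higher and 7 lower for SFN+5-FU against control, 14 and 7 for SFN against control, 0 and 0 for SFN+5-FU against SFN). In SFN against control RIGI (adjusted p = 0.0672) and HLA-B (0.0548) no longer passed, while IFITM2 (0.0418) and HLA-E (0.0479) newly did. Over single genes and contrasts, the alternatives that leave out no library kept the side of the threshold and the direction of called values in 1741 fits, with 74 newly past it and 42 no longer past it; leaving out 1 library gave 1317, 51 and 63. A sign changed in 26 of 3288 fits, each of a value not called in either fit, with the largest at 0.26 log2 units (IFI6, SFN+5-FU against SFN). FPKM without fragment counts limits what can be said of members near 1 FPKM.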
